A study of Mus musculus with 2 samples.

Results

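A small set of 50 cells in a pool of stimulated mouse spleen cells carried the messenger RNAs of the azurophil granule enzymes Mpo, Elane and Ctsg. They were selected on measured values: a cell was taken when it had at least 200 genes, at most 10% mitochondrial UMIs, at least 10 UMIs of Mpo, Elane and Ctsg together and no UMI of Cd79a, Ms4a1, Cd3d, Cd3e and Ncr1, which mark B, T and NK cells. A UMI is a unique molecular identifier, so that each count stands for 1 captured RNA molecule. Of 16325 cells past the filters on genes and mitochondrial UMIs, 64 held at least 10 UMIs of the 3 enzymes. Among these, 14 were left out for a UMI of an exclusion gene, in 6 of them a single UMI, and 50 remained, 0.306% of the cells (exact Clopper-Pearson 95% interval 0.227 to 0.404). These cells held 77.9% of all UMIs of Mpo, Elane and Ctsg in the pool and 1.36% of the UMIs of all genes. For comparison, neutrophils were taken as the 91 cells with at least 20 UMIs of S100a8 and S100a9, no UMI of Mpo, Elane or Ctsg and the same exclusions.

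The cells came from the spleens of wild-type C57BL/6 mice, 8 weeks old, which had all been sensitized to ovalbumin (OVA) on days 0 and 10. An untreated group got no therapy, a Standard group then received OVA in PBS on days 20, 22 and 24 and OVA in Alum on days 40 and 60, and another group received the DCIR-2-Fusion protein, which carries OVA, on days 20, 22 and 24. On day 80, per the methods of the study, mice were challenged with OVA, and spleen cells of all groups were stimulated for 3 h with PMA and ionomycin, sorted by CD45 into a fraction with and a fraction without CD11b, mixed in equal parts, frozen and sequenced as 1 pool with 4 hashtags, which are antibodies with a DNA barcode. The mixing of the sorted fractions sets the share of any myeloid cell in the pool. No source used here pairs the 4 hashtags with the 3 conditions, so the conditions could not be compared, and with 1 pooled library there are no replicates and no test. Intervals around levels and shares therefore cover counting error only. All barcodes came from this 1 gene expression library, which held 137010302 UMIs of genes in 16829 barcodes. Levels are UMIs per 1000000 (CPM) of the summed UMIs of a group, and since each molecule is counted at its 3′ end and does not count more when it is longer, they can be set side by side between genes.

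Granulocytes arise from progenitors that pass through a series of stages. At the promyelocyte stage, cells make the azurophil granules, which hold myeloperoxidase and the serine proteases neutrophil elastase, cathepsin G and proteinase 3. Transcription of these genes then ends, and the specific granule proteins, such as lactoferrin and cathelicidin, and later the gelatinase granule proteins follow, so that mature neutrophils carry the azurophil proteins but little of their RNA. The same serine proteases are made early in the monocyte branch, and related genes encode the proteases of basophils and mast cells.

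The genes of these proteases lie in clusters, and their promoters are shown because Elane and Prtn3 varied together among the cells while Ctsg lies beside the basophil protease gene Mcpt8. In the GRCm38 build, Elane (chr10:79886247-79888215, plus strand) starts 3072 bases after the end of Prtn3 (chr10:79874476-79883174, plus strand), and Ctsg (chr14:56099881-56102574, minus strand) lies 14607 bases from Mcpt8 (chr14:56082166-56085273, minus strand). Below are the 150 bases before the RefSeq start of each gene (GRCm38.p6), 5′ to 3′ on the strand of the gene. The gene bounds just given come from the GENCODE annotation, and the RefSeq starts of Elane, Prtn3 and Mcpt8 lie inside them. Capitals mark matches, on either strand, to GAGGAAG (as bound by PU.1), CAACNG (MYB) and TGTGGT (RUNX).
Prtn3 (chr10:79879517-79879666, plus strand): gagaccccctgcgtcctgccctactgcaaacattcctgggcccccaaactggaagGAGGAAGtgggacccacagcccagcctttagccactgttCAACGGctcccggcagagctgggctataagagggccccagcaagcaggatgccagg
Elane (chr10:79886162-79886311, plus strand): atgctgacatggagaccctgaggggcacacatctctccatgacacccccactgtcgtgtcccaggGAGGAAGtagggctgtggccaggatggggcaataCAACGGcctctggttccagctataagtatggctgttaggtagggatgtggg
Ctsg (chr14:56102575-56102724, minus strand): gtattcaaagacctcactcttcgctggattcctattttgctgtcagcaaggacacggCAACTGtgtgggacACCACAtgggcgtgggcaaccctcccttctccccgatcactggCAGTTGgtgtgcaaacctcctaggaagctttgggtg
Mcpt8 (chr14:56085198-56085347, minus strand): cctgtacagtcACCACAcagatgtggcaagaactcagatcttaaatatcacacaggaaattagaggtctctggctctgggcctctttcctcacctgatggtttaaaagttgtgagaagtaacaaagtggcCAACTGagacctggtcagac
Prtn3 held GAGGAAG 95 and CAACGG 56 bases before its start, and Elane held the same letters 85 and 51 bases before its start. Among 32851 promoters of this length, 6.85% held GAGGAAG, 19.1% held CAACNG and 1.19% held both. Ctsg held CAACTG at 93, CAGTTG at 36 and ACCACA at 79 bases before its start, and Mcpt8 held CAACTG at 20 and ACCACA at 139 bases. TGTGGT or its complement was found in 8.40% of promoters, and both this motif and CAACNG in 1.78%. The same window of Mpo (chr11:87793634-87793783, plus strand) held none of these 3 motifs, and none of the 5 promoters held TTNNGNAA (C/EBP, 22.7% of promoters) or AGATAA, the motif of the GATA family (5.65%). The whole window of Mpo lies inside the GENCODE bounds of the gene (chr11:87793581-87804413). No match overlapped another. A match is a description of letters and not a measured binding site.

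The 3 enzymes that chose the cells were present at very different amounts from cell to cell, and these values are given as a description. Mpo, the peroxidase that makes hypochlorous acid, ranged from 1 to 249 UMIs per cell with a median of 62.5. Elane, the gene of neutrophil elastase, ranged from 0 to 529 with a median of 61 and was found in 48 of the 50 cells. Ctsg, the gene of cathepsin G, ranged from 1 to 346 with a median of 43.5. Their sum lay between 11 and 1028 UMIs with a median of 200, so most of the cells were far above the threshold of 10. The 3 cells nearest to it held 11, 14 and 16 UMIs, while 10 cells just outside it held between 5 and 9. Of these 10 cells, 9 held Prtn3 and 6 held over 100 UMIs of S100a8 and S100a9. In B cells and NK cells, which lack these genes, Mpo was at 4.2 and 19.6 CPM, against 2207 CPM in the 50 cells. A Mpo UMI was found in 0.92% of B cells and 1.27% of NK cells, at median depths of 10787 and 5587 UMIs, compared with 35566 in the 50 cells.

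The cells were deep. They held between 8493 and 64638 UMIs and between 2959 and 7408 genes, with medians of 35566 and 5437, whereas the neutrophils had a median of 5403 UMIs and 1619 genes. Ribosomal protein genes took a median of 22.2% of UMIs in the 50 cells and 3.35% in neutrophils, and mitochondrial genes took 1.89% and 0.550%. Scrublet, a doublet caller, marked 4 of the 50 cells, close to its rate over all cells of 8.18%. For shares of cells with a UMI, each cell was also thinned to 2000 UMIs, which kept all 50 cells and 74 of the 91 neutrophils. All 17 neutrophils left out lacked 20 UMIs of Camp, Ngp and Ltf, of which 29 remained beside all 45 that had them, so that thinned shares of neutrophils lean to the latter.

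The cells did not form a uniform set of myeloid progenitors. Of the markers of granulocyte-monocyte progenitors, the azurophil genes Prtn3 and Ms4a3 were each found before thinning in 92% of the cells, Kit in 54%, Myb in 46%, Cd34 in 32% and Cebpa in 24%. After thinning to 2000 UMIs, Prtn3 was found in 84%, Ms4a3 in 50%, Kit in 10% and Cd34 in 2% of the cells. Genes of later granulocyte stages were present in part of them, with Camp in 28% and Cebpe in 6% of the cells after thinning to equal depth, against 0.61% and 0% of B cells (44% of the 50 cells for each before thinning, when 3.99% of B cells held Camp), and genes of basophils and mast cells in others. They are therefore called here by their genes, as Mpo/Elane/Ctsg cells. Their values fell into 4 ranges, which were cut after the values had been seen and are ranges and not cell types. In 8 cells, Cpa3 and Gata2, genes of basophils and mast cells and their progenitors, summed to at least 4 UMIs, with 2 UMIs or fewer in all other cells. The remaining cells were divided at 20 UMIs of S100a8 and S100a9, where no cell lay between 8 and 36, into 19 S100-low cells and S100-high cells, and the latter at 20 UMIs of Camp, Ngp and Ltf, where no cell lay between 7 and 94, into 10 Camp-low and 13 Camp-high cells. The median depth was 24328 UMIs in the Cpa3/Gata2 cells, 36263 in the S100-low, 37011 in the S100-high, Camp-low and 34939 in the S100-high, Camp-high cells.

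**Figure D1:**
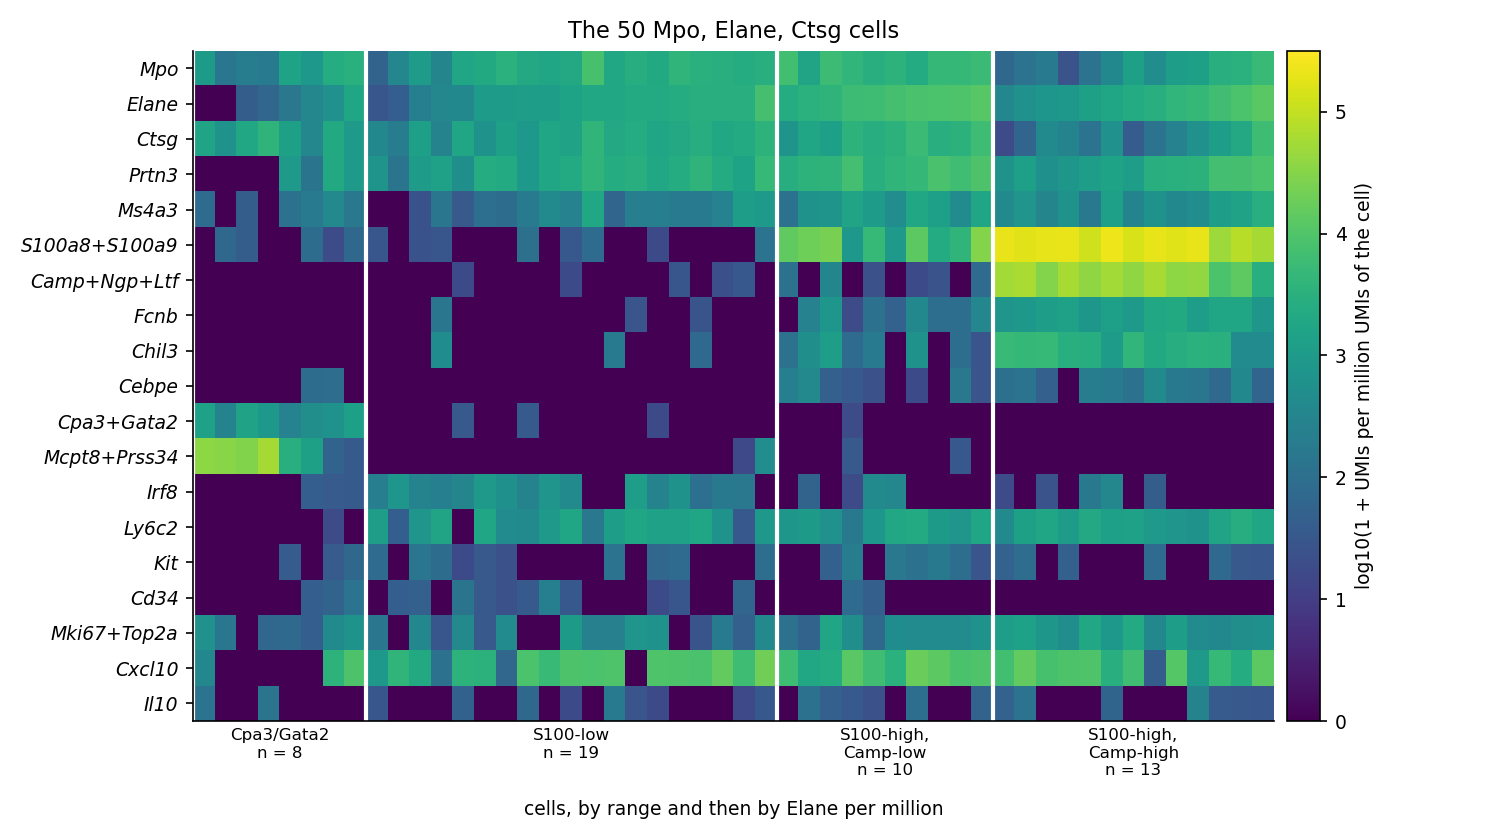
Heat map of the 50 Mpo/Elane/Ctsg cells, each a column, ordered by range and then by Elane. Colour gives log10(1 + CPM of the cell) for each gene or sum of genes in the rows. Camp, Ngp and Ltf were high in 13 cells, which had high S100a8 and S100a9, and Mcpt8 and Prss34 were high in 4 of the 8 Cpa3/Gata2 cells, which had no Prtn3.

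Prtn3, the gene of proteinase 3, was not used to select the cells, but it varied closely with Elane, which was. Prtn3 ranged from 0 to 422 UMIs per cell with a median of 71 and was found in 46 of 50 cells. Summed over the cells it was at 2807 CPM (exact Poisson 95% interval 2731 to 2885), close to Mpo at 2207, Elane at 3225 and Ctsg at 1875. After thinning, 84% of the cells held a Prtn3 UMI (70.9 to 92.8), against 5.41% of neutrophils, 0.43% of B cells and 0.27% of NK cells. By range, Prtn3 was at 826 CPM in the Cpa3/Gata2 cells, 2123 in the S100-low cells, 5687 in the S100-high, Camp-low cells and 2716 in the S100-high, Camp-high cells. Elane followed the same order, at 609, 2053, 7399 and 3256 CPM. The Camp-high cells with 94, 235 and 391 UMIs of Camp, Ngp and Ltf held 282, 197 and 216 UMIs of Prtn3. They held 416, 176 and 256 UMIs of Elane, and no other Camp-high cell held more than 130 of Prtn3 or 177 of Elane. Per cell, the median of Prtn3 was 1574 CPM in the Camp-high and 2291 in the S100-low cells, the reverse of the summed order. That of Elane was 2457 and 1538 CPM. In sums and medians, both genes were highest in the cells that had S100a8 and S100a9 but little Camp. Mpo was at 1723, 2267, 3887 and 1092 CPM, and Ctsg at 1531, 1779, 3700 and 828. The last 2 genes were lowest in the Camp-high cells, where Elane and Prtn3 were not. Ms4a3, a membrane protein gene of granulocyte-monocyte progenitors, was at 167, 333, 1237 and 797 CPM.

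Across the 50 cells, Elane and Prtn3 varied together most closely among Mpo and the 3 proteases (Spearman correlation of CPM per cell 0.91, and 0.90 over the 42 cells outside the Cpa3/Gata2 range). The coefficient was 0.76 for Mpo and Prtn3, 0.71 for Mpo and Elane, 0.68 for Mpo and Ctsg, 0.55 for Ctsg and Prtn3 and 0.51 for Elane and Ctsg. Without the Cpa3/Gata2 cells, the values were 0.76, 0.68, 0.78, 0.72 and 0.67 in the same order. These cells share a library and differ in depth, and the correlations are descriptions. The gene that follows Elane on the chromosome, Cfd, which encodes complement factor D, had no UMI in the 50 cells, although it lies 2637 bases away. Gzmb, which encodes granzyme B and lies 156263 bases from Ctsg in the cluster on chromosome 14, had 185 UMIs in these cells in all. Of these, 104 lay in the 13 Camp-high cells, at a level of 216 CPM, against 6318 CPM in NK cells.

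**Figure D2:**
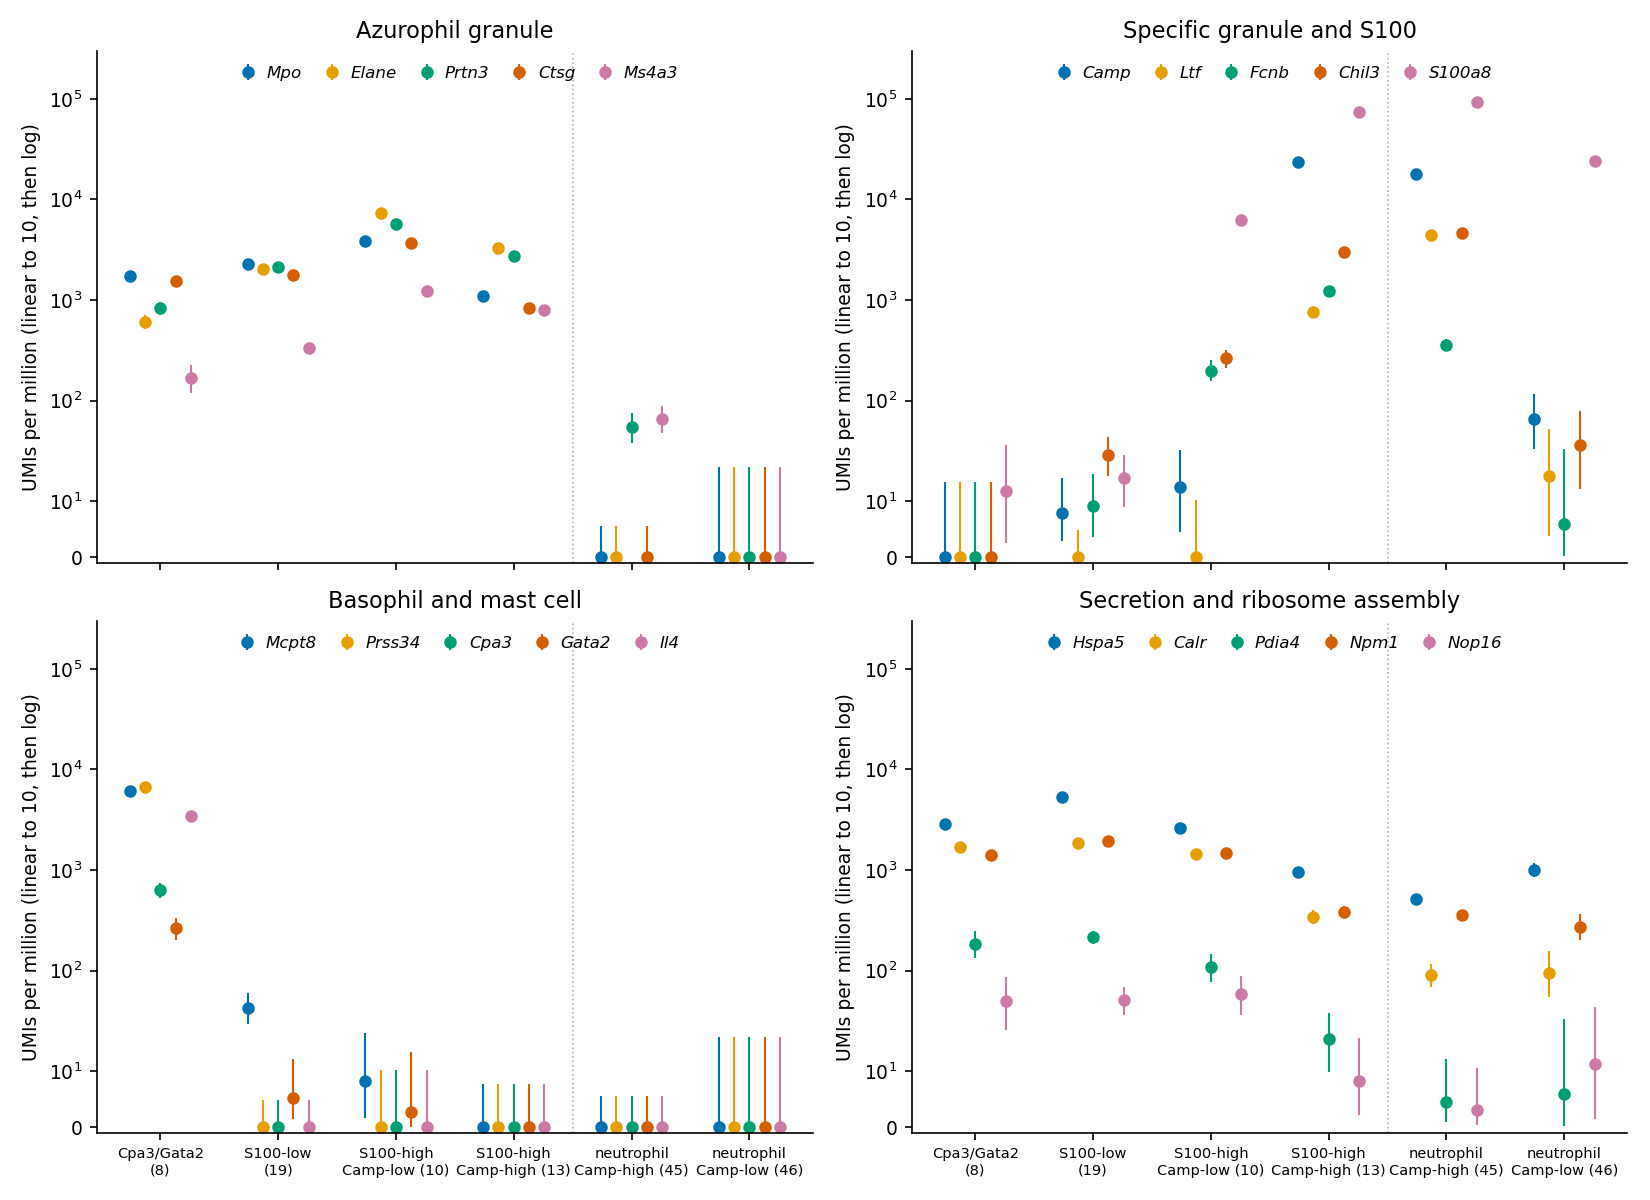
Levels in the 4 ranges of the Mpo/Elane/Ctsg cells (left of the dotted line) and in neutrophils with and without Camp, Ngp and Ltf, in CPM on a scale that is linear to 10 and logarithmic above. Points are levels of summed UMIs, bars are exact Poisson 95% intervals, and the number of cells is in parentheses. Camp is near 0 in the first 3 ranges and at 23463 CPM in the fourth, while Mcpt8, Prss34 and Il4 are high in the Cpa3/Gata2 cells and at most 43 CPM in the others.

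Between the Mpo/Elane/Ctsg cells and neutrophils, 5811 genes were compared, each with at least 50 UMIs in both groups together and a mean of at least 20 CPM, and without the genes of the selection. A gene was counted as higher or lower from a 2-fold ratio of CPM, with no test, since each group was 1 sum over a single library. Of the genes compared, 1374 (23.6%) were higher and 812 (14.0%) were lower in the Mpo/Elane/Ctsg cells, and the median log2 ratio of all genes was 0.11. A few genes took much of the UMIs of neutrophils, S100a9 and S100a8 alone 95322 and 78780 CPM. With the genes of the selection and the 20 most abundant genes left out of the totals, the median moved by -0.21 and the split became 1219 higher and 1162 lower of 6147 genes, so that 51.2% of the counted genes were higher in place of 62.9%.

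The other azurophil granule genes were mostly higher in the Mpo/Elane/Ctsg cells. Of 9 compared, 7 were higher and 1 lower, beside 23.6% and 14.0% of all genes, with a median log2 ratio of 2.50 against 0.11. Prtn3 was 64.9-fold higher (46.8 to 92.7), Ms4a3 was at 609 against 52.9 CPM, and Nkg7, a granule membrane protein gene of cytotoxic and myeloid cells, was at 334 against 33.7 CPM. Prtn3 and Ms4a3 varied with Elane among the cells (Spearman correlation 0.91 and 0.76), and the neutrophils were chosen without a UMI of Elane. Their ratios are therefore not independent of the selection. Serpinb1a, which encodes an inhibitor of these proteases, was at 608 against 154 CPM, and Ctsc, the protease that activates them, at 167 against 75.7 CPM. The exceptions were Srgn, the granule proteoglycan serglycin, at 2792 against 3956 CPM, and Lyz2, a lysozyme gene, at 780 against 2531 CPM.

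Genes of specific granules were lower: 9 of 12 were lower, beside 14.0% of all genes, none was higher and the median log2 ratio was -1.76. Without the cells of hashtag 9, 5 of 11 were lower (median -0.99, and 17.6% of all genes). With CPM averaged over cells 6 of 12 were lower and 1 higher (median -1.03, and 19.4% of all genes lower). Ltf, the gene of lactoferrin, was at 196 CPM against 3557, Ngp at 4218 against 23488 and Lcn2, which encodes an iron-siderophore binding protein, at 557 against 5550. Camp, the gene of cathelicidin, was at 6116 against 14257 CPM, and nearly all of it lay in the 13 Camp-high cells, at 23463 CPM against 17833 in the 45 neutrophils that held at least 20 UMIs of Camp, Ngp and Ltf, called Camp-high neutrophils here. In the same 2 groups, Ltf was at 751 against 4448 CPM and Lcn2 at 2102 against 6879 CPM. Fcnb, the gene of ficolin B, had the opposite order, at 1235 against 360 CPM. Camp, and Ngp at 16178 against 29382 CPM, stayed within a 2-fold ratio. Camp, Ngp and Ltf were used to define both groups. Of the 13 Camp-high cells, 4 were called as doublets of hashtags (30.8%, against 13.3% of the Camp-high neutrophils). In the other 9 cells, Elane was at 3277, Prtn3 at 2668 and Camp at 22010 CPM, each found in all 9.

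Genes of mature neutrophils were lower as well, with 8 of 14 lower, beside 14.0% of all genes, 1 higher and a median log2 ratio of -2.20. The median was -1.40 without the cells of hashtag 9, -1.05 against Camp-high neutrophils alone and -1.01 after thinning. Retnlg, a resistin-like gene of neutrophils, was at 12.4 CPM (7.9 to 18.6) against 3225 CPM and was 259-fold lower. Mmp9, the gene of gelatinase B, had no UMI in the Mpo/Elane/Ctsg cells and was at 99.8 CPM in neutrophils. It was 61.5-fold lower when 3 UMIs are set for the group, with a ratio of at most 0.0204 by the counting interval. Mmp8, a collagenase gene, was at 2.2 against 96.2 CPM, Ly6g, the neutrophil surface marker, at 1.1 against 75.7, and Cxcr2, the chemokine receptor of circulating neutrophils, at 5.9 against 117 CPM. Csf3r, the receptor of the growth factor G-CSF, was at 25.9 against 230 CPM, with 1003 CPM in neutrophils without Camp, Ngp and Ltf and 35.1 CPM in those with them. Among the genes lowest in the Mpo/Elane/Ctsg cells were also the stefin gene Stfa2l1 (1 UMI against 216), whose reads may be shared with near-identical copies, the heat shock gene Hspa1a (1 against 98 UMIs), Plbd1, Slfn4 and Fpr2, a formyl peptide receptor gene.

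**Figure D3:**
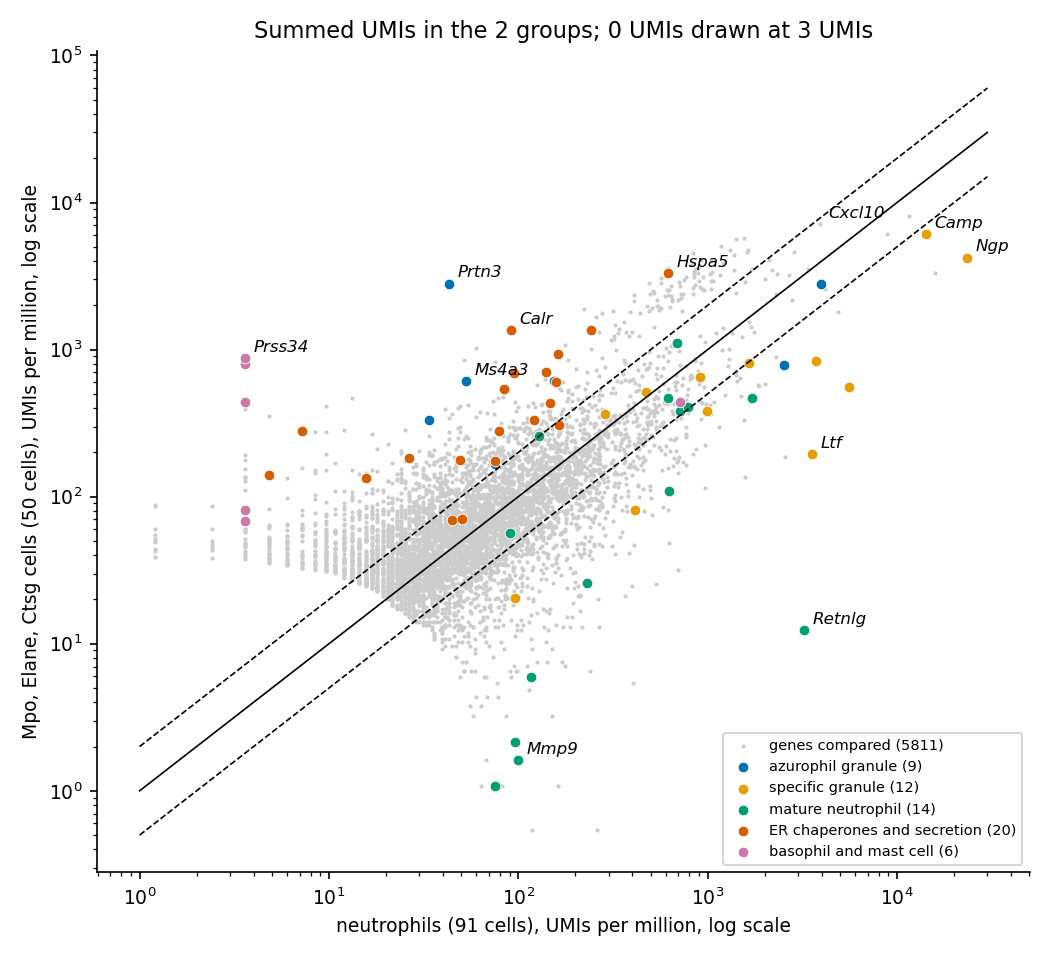
CPM of summed UMIs of 5811 genes in neutrophils (horizontal axis) and Mpo/Elane/Ctsg cells (vertical axis), both on log scales, with 0 drawn at the level of 3 UMIs. The solid line marks equal levels and the dashed lines a 2-fold ratio. Prtn3, Ms4a3, Calr and Prss34 lie above the lines, and Ltf, Ngp, Retnlg and Mmp9 below them.

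The machinery of protein secretion was at higher levels than in neutrophils. Of 20 genes of endoplasmic reticulum chaperones and secretion, 17 were higher, beside 23.6% of all genes, none was lower and the median log2 ratio was 2.38. Hspa5, the gene of the chaperone BiP, was at 3330 against 615 CPM, Calr, which encodes calreticulin, at 1356 against 91.4, and Pdia4, a disulfide isomerase gene, at 139 against 4.8 CPM. Calr and Hsp90b1 were also counted among the azurophil granule genes. Sdf2l1, a chaperone partner, was at 282 against 7.2 CPM. In the Cpa3/Gata2, S100-low, S100-high Camp-low and S100-high Camp-high cells, the 20 genes summed to 11837, 17005, 11446 and 4986 CPM, compared with 2373 CPM in neutrophils and 4323 CPM in all cells of the pool. In 62 monocyte-like cells, selected by Lyz2 and by Csf1r and Ccr2, they summed to 10169 CPM, near the 12118 CPM of the 50 cells together. Of 17 genes of ribosome assembly, 12 were higher, beside 23.6% of all genes, and none was lower, with a median log2 ratio of 1.28. Without the cells marked by Scrublet 15 of 17 were higher (median 1.91, and 25.8% of all genes). With the most abundant genes left out of the totals 9 of 17 were higher (median 1.01, and 19.8% of all genes). Npm1, a nucleolar chaperone, was at 1380 against 339 CPM and Fbl, which encodes fibrillarin, at 143 against 28.8 CPM. These genes summed to 4068, 4793, 4566 and 1345 CPM in the 4 ranges and to 1368 CPM in neutrophils, so that the Camp-high cells were at the level of the neutrophils. All of these levels were below the 9830 CPM of all cells of the pool, with 11395 CPM in B cells and 6576 CPM in NK cells.

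**Figure D4:**
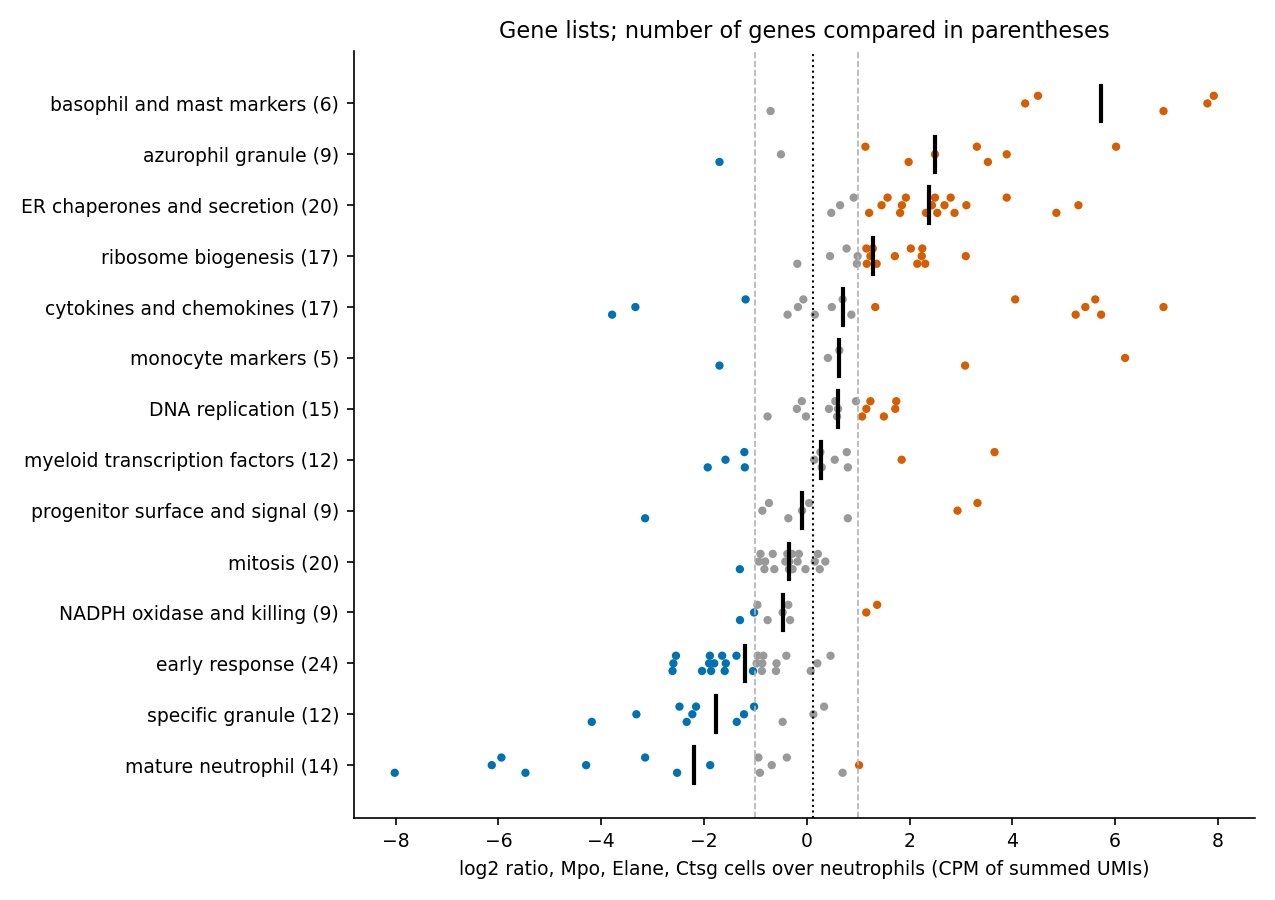
Log2 ratio of CPM, Mpo/Elane/Ctsg cells over neutrophils, for each gene of 14 lists, with the number of genes compared in parentheses. Black bars are list medians, dashed lines mark a 2-fold ratio and the dotted line the median of all genes, 0.11. The median is 2.38 for endoplasmic reticulum chaperones and secretion and -2.20 for mature neutrophil genes.

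Surface receptors and regulators of progenitors were present at low levels. Of 9 genes compared, 2 were higher and 1 lower, close to the 23.6% and 14.0% over all genes, with a median log2 ratio of -0.09. With no minimum of CPM, which admits genes as low as Cd34, 5 of 12 were higher and 1 lower (median 0.42, and 28.6% of all genes higher). With the most abundant genes left out of the totals 3 of 10 were higher and 3 lower (19.8% and 18.9% of all genes). Of 12 myeloid transcription factors 2 were higher and 4 lower, with a median of 0.28. Kit, the receptor of stem cell factor, was at 48.1 CPM (38.6 to 59.2) and Cd34, a surface marker of progenitors, at 24.9 CPM (18.2 to 33.2), with 4.8 CPM and no UMI in neutrophils. At equal depth, Kit was found in 10% of the Mpo/Elane/Ctsg cells and in 3.07% of NK cells, and Cd34 in 2% and 0.039%. Kit was highest in the S100-high, Camp-low cells at 105 CPM, and Cd34 had no UMI in the Camp-high cells. Flt3, another growth factor receptor of progenitors, had 2 UMIs in all. Ly6a, the gene of the surface protein Sca-1, was at 257 against 33.7 CPM, with 488 CPM in the Cpa3/Gata2 cells and 50 CPM in the Camp-high cells.

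Among transcription factors, Meis1, a homeobox gene of early progenitors, was at 45.4 CPM in the Mpo/Elane/Ctsg cells and had no UMI in neutrophils, 12.6-fold higher when 3 UMIs are set for neutrophils. Myb was at 38.9 against 10.8 CPM. Cebpe, which drives granulocyte maturation, separated the ranges, with no UMI in the 19 S100-low cells, 8 of 10 positive cells among the S100-high, Camp-low and 12 of 13 among the Camp-high. Its levels were 29 CPM in the Cpa3/Gata2 cells, 0 in the S100-low cells, 55 and 147 CPM. Irf8, a factor of the monocyte and dendritic branch, had the opposite order in the 3 ranges without Cpa3 and Gata2, with UMIs in 16 of 19 S100-low, 4 of 10 S100-high Camp-low and 5 of 13 Camp-high cells and levels of 360, 91 and 58 CPM, but it was lowest in the Cpa3/Gata2 cells at 21 CPM. Of the 12 monocyte genes, Ms4a6c, at 133, 25 and 0 CPM, and F13a1, which encodes a coagulation factor subunit, at 137, 14 and 10 CPM, were likewise highest in the S100-low cells of these 3 ranges, while the Cpa3/Gata2 cells had 8 and 200 CPM. The list as a whole did not follow this order. It summed to 1907 CPM in the S100-low, 1416 in the S100-high, Camp-low and 3403 CPM in the Camp-high cells, where its most abundant genes, Lyz2 (486, 138 and 2067 CPM) and Ly6c2 (948, 1184 and 1303 CPM), were highest. Csf1r, the receptor that defines monocytes, was at 33, 6 and 2 CPM in the same 3 ranges. Gfi1, with 4 UMIs, and Cebpa, with 15 UMIs, were too low to order.

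The 8 Cpa3/Gata2 cells carried most of the basophil genes. Mcpt8 and Prss34, basophil proteases, summed to 2, 3, 31, 79, 473, 686, 890 and 902 UMIs in these cells, so that 4 cells were far above the others. The 4 cells with at least 473 UMIs had between 2 and 24 UMIs of Mpo, 0 or 1 of Elane, no Prtn3 and between 9 and 57 of Ctsg, and Ctsg was the highest of the 3 enzymes in each of them. The other 4 cells had between 19 and 182 UMIs of Mpo and between 4 and 99 of Elane, and all of them held Prtn3. The Cpa3/Gata2 cells had 6041 CPM of Mcpt8, 6751 of Prss34, 630 of Cpa3, a mast cell carboxypeptidase gene, and 263 of Gata2. In the 7 basophil-like cells of the pool, which had no UMI of Mpo, Elane or Ctsg, these genes were at 5228, 1922, 894 and 22.3 CPM. Il4, the gene of interleukin-4, was at 3425 CPM in the Cpa3/Gata2 cells and at 15305 CPM in basophil-like cells, and Il13 at 1047 and 3865 CPM. Prg2, a granule protein gene of eosinophils and basophils, gave 396 CPM over the 50 cells, but all 733 of its UMIs came from 1 cell. Scrublet marked 2 of these 8 cells.

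Prss34, Mcpt8 and Il4 stood at the top of the genes higher than in neutrophils, in which they had no UMI, with ratios of at least 242, 222 and 123. They rested on 12%, 24% and 10% of the Mpo/Elane/Ctsg cells. Other genes among the 15 highest were Gm4951 (353 against 4.8 CPM, in 72% of the cells), F13a1 (88.1 against 1.2), Adgrl4 (85.9 against 1.2), Lpl, the gene of lipoprotein lipase (413 against 9.6), and the chemokine genes Ccl2 (191 against 3.6) and Ccl9 (155 against 3.6). Ratios against 1 to 8 UMIs in neutrophils have wide counting intervals, which for Adgrl4 ran from 12.6 to 2841. Ccl2, which attracts monocytes, lay almost wholly in the S100-low cells at 454 CPM, with 6 and 8 CPM in the S100-high ranges. Il6 was at 1348 CPM in the Cpa3/Gata2 cells and at 5 CPM or less in the others.

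Cytokine genes were abundant after the stimulation with PMA and ionomycin. Cxcl10, a chemokine gene induced by interferons, was the fourth most abundant gene of the Mpo/Elane/Ctsg cells at 7128 CPM (7007 to 7251), after S100a9 at 24375, S100a8 at 20687 and Malat1 at 8127 CPM. The sums of the S100 genes rested on the Camp-high cells, where S100a9 was at 91164 CPM, while the median of the 50 cells was 3.5 UMIs of both genes together. Cxcl10 was found in 88% of the Mpo/Elane/Ctsg cells, and after thinning in 84%, against 47.3% of neutrophils and 7.86% of B cells. Its level was 3906 CPM in neutrophils and 295 CPM in all cells of the pool, and it lay between 7052 and 9909 CPM in the 3 ranges without Cpa3 and Gata2. Of 17 cytokine and chemokine genes compared, 7 were higher than in neutrophils and 3 were lower, beside 23.6% and 14.0% of all genes. Without the Cpa3/Gata2 cells, when 23.6% and 13.8% of all genes were counted, 2 of 13 were higher and 4 lower. Il4 and Il13 and nearly all of Il6 came from the Cpa3/Gata2 cells, and what moved the other genes of the list was not tested. Cxcl2, which attracts neutrophils, was at 185 against 2554 CPM, and Tnf at 82.7 against 189 CPM. Il10 was at 30.8 CPM (23.3 to 39.9) against 27.6 CPM, with a UMI in 48% of the cells and in 4% after thinning, compared with 9.64% of B cells at that depth. None of 24 genes of the early response to stimulation was higher and 13 were lower, beside 14.0% of all genes, with a median log2 ratio of -1.21. Against Camp-high neutrophils alone 9 of 21 were lower and 1 higher (median -0.95, and 9.86% of all genes lower). Without the cells of hashtag 11, 11 of 22 were lower and 2 higher (median -0.99, and 10.6% of all genes lower). Egr1 was at 212 against 870 CPM, Fos at 67.0 against 248 and Dusp1 at 45.9 against 278 CPM.

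Of 9 genes of the NADPH oxidase and related killing functions, 2 were higher, Gpx1 and Prdx1, which remove peroxides, and 2 were lower, Cybb among them, shares near those over all genes (23.6% and 14.0%). Cybb, the catalytic subunit, was at 4 CPM in the Cpa3/Gata2 cells, 446 in the S100-low, 889 in the S100-high, Camp-low and 1756 CPM in the Camp-high cells, and at 2060 CPM in Camp-high neutrophils. Rac2, a GTPase that activates the oxidase, was at 96, 90, 243 and 506 CPM in the same order. Itgam, the gene of the CD11b on which cells were sorted, was at 13, 18, 30 and 361 CPM, and at 627 CPM in neutrophils.

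Summed markers of B, T, NK and dendritic cells were lower in the Mpo/Elane/Ctsg cells than in all cells of the pool, and those of the 6 other cell types were higher. Of 10 B cell genes, 7 were detected with a summed level of 42.7 CPM, led by Igkc at 16.8 CPM, and Cd22, Pax5 and Iglc2 had no UMI. Of 10 T cell genes, 7 were detected at 62.1 CPM, led by Il7r. Of 10 NK cell genes, 8 were detected at 321 CPM, led by Ccl5, and 1 Camp-high cell, which was called as a hashtag doublet, held 336 of these UMIs while the next held 55. In 7 cells, B, T and NK cell genes summed to at least 20 UMIs. Of 12 erythroid genes, 3 were detected at 94.6 CPM (77.3 in all cells), nearly all Car2, and the globin genes and Klf1 had no UMI. Of 8 megakaryocyte genes, 5 were detected at 38.4 CPM (17.6 in all cells), led by F2r, and of 8 eosinophil genes 3 were detected at 404 CPM, nearly all Prg2 of 1 cell, against 20.8 CPM in all cells. Of 10 macrophage genes, 7 were detected at 340 CPM, led by Vcam1 at 266 CPM, against 258 CPM in neutrophils and 29.2 CPM in all cells, while C1qa, C1qc and Cd5l had no UMI. Of 10 dendritic cell genes, 7 were detected at 82.1 CPM, led by Cd74 at 41.6 CPM, with Cd209a and Siglech at 0, and neutrophils had 802 CPM of this list. All 12 monocyte genes were detected, at 2004 CPM in the Mpo/Elane/Ctsg cells, 3233 CPM in neutrophils and 374 CPM in all cells, led by Ly6c2 at 965 CPM in the Mpo/Elane/Ctsg cells. All 10 basophil and mast cell genes were detected, at 2767 CPM over the 50 cells against 102 CPM in all cells. Within the ranges, their level was 19693 CPM in the Cpa3/Gata2, 183 in the S100-low, 224 in the S100-high, Camp-low and 374 CPM in the Camp-high cells. The part of these other cell types in the levels above was not tested.

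Genes of the cell cycle were found in most of the cells. After thinning to 2000 UMIs, 68% of the Mpo/Elane/Ctsg cells held at least 2 UMIs of 20 DNA replication genes (53.3 to 80.5), against 32.4% of neutrophils (22.0 to 44.3) and 23.6% of B cells. For 24 genes of mitosis the shares were 68% and 52.7% (40.7 to 64.4), with overlapping intervals, and 14.9% in B cells. The share for mitosis was 55.6% in Camp-high neutrophils and 48.3% (29.4 to 67.5) in the others, whose levels of Top2a and Mki67 were 6 and 0 CPM, so that a cell could reach it without these markers. The share for replication was 46.7% (31.7 to 62.1) in Camp-high neutrophils, with an interval that overlapped that of the Mpo/Elane/Ctsg cells. It was 10.3% (2.19 to 27.4) in the other neutrophils. Before thinning, the shares of the Mpo/Elane/Ctsg cells and of all neutrophils were 100% and 44.0% for replication, and 98% and 70.3% for mitosis. By range, the share with replication genes was 25% in the Cpa3/Gata2 cells, 57.9% in the S100-low, 90% in the S100-high, Camp-low and 92.3% in the Camp-high cells. For mitosis genes it was 37.5%, 52.6%, 90% and 92.3%. Both shares were thus highest in the S100-high ranges, although the intervals of these small ranges are wide. In levels, 6 of 15 replication genes were higher than in neutrophils and none was lower, with a median log2 ratio of 0.61, beside 23.6% higher over all genes. With CPM averaged over cells 12 of 16 were higher (median 1.45, and 28.6% of all genes), and without the cells of hashtag 9 the count was 8 of 13 (median 1.13, and 28.8% of all genes). Examples were Mcm3 of the replicative helicase at 85.9 against 38.5 CPM and Dut, a nucleotide metabolism gene, at 210 against 63.7 CPM. None of 20 mitosis genes was higher and 1, Cenpf, was lower, with a median log2 ratio of -0.34. With CPM averaged over cells 3 of 20 were higher (median 0.26), and 3 of 17 were without the cells of hashtag 9 (median 0.54). With the most abundant genes left out of the totals 5 of 21 were lower (18.9% of all genes). Against Camp-high neutrophils alone 5 of 20 were lower (9.86% of all genes). Top2a, a topoisomerase gene, was at 305 against 483 CPM and Mki67, a proliferation marker, at 220 against 420 CPM. Both were concentrated in Camp-high neutrophils, at 603 and 525 CPM, and nearly absent from the others, at 6 and 0 CPM.

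**Figure D5:**
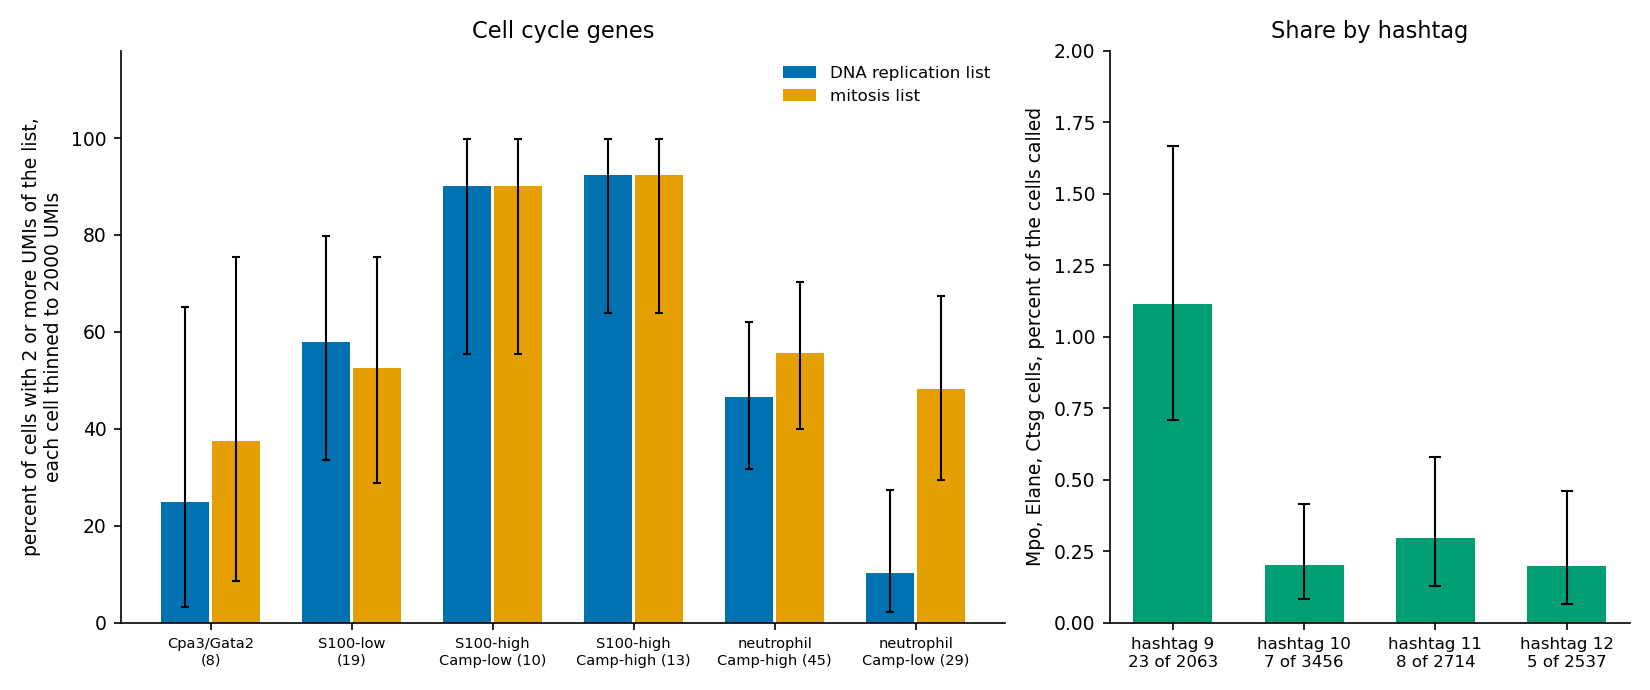
Left, percent of cells with at least 2 UMIs of the DNA replication or mitosis list after thinning each cell to 2000 UMIs, by range of the Mpo/Elane/Ctsg cells and for neutrophils with and without Camp, Ngp and Ltf. Right, Mpo/Elane/Ctsg cells as a percent of the cells called for each hashtag. Bars start at 0 and whiskers are exact Clopper-Pearson 95% intervals. The replication share is 90% and 92.3% in the S100-high ranges, and the share of hashtag 9 is 1.11%.

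Camp-high cells with and without the azurophil enzymes could be set against each other. Between the 13 Camp-high Mpo/Elane/Ctsg cells and the 45 Camp-high neutrophils, 3340 genes were compared, of which 356 (10.7%) were higher and 342 (10.2%) were lower in the former. The genes named here were chosen after their values had been seen. Prtn3 was at 2716 against 54.2 CPM, 50.1-fold higher, Ms4a3 at 797 against 66.2 CPM and Saa3, a serum amyloid gene, at 1042 against 78.3 CPM. Both groups were cut on Mpo, Elane and Ctsg, and cells with 1 to 9 UMIs of these were in neither. Prtn3 and Ms4a3 varied with Elane, so their ratios are not independent of the selection. Of the 1309 UMIs of Prtn3 in the 13 cells, 282, 197 and 216 lay in those with 94, 235 and 391 UMIs of Camp, Ngp and Ltf. The median of Prtn3 over the 13 cells was 1574 CPM, below the level of the sum. Tmem267 (166 against 1.5 CPM), Gm4951 and Gstm1 were also higher. Retnlg was at 47.7 against 3026 CPM, 63.4-fold lower, and Stfa2l1 at 2.1 against 248 CPM. H2-Aa, Cd74, Bach2 and Aff3, genes of B or antigen presenting cells, were lower too, and the B cell list was at 16.6 CPM in the former and 152 CPM in the Camp-high neutrophils. Without cells called as doublets of hashtags, which left 9 and 39 cells, 287 of 2723 genes were higher and 316 lower, with Prtn3 at 2668 against 38.1 and Retnlg at 56.4 against 3182 CPM. The median depth was 34939 UMIs in the Camp-high Mpo/Elane/Ctsg cells and 14260 UMIs in the Camp-high neutrophils.

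Hashtags were called for 43 of the 50 cells, 7 (14.0%) were called as doublets with more than 1 hashtag and none was negative, whereas 17.8% of all cells were doublets and 16.2% negative. Of the 7 doublets, 4 were among the 13 Camp-high and 3 among the 19 S100-low cells. Hashtag 9 held 23 of these cells among 2063, or 1.11% (0.708 to 1.67). Hashtag 10 held 7 among 3456 (0.203%, 0.0815 to 0.417), hashtag 11 held 8 among 2714 (0.295%, 0.127 to 0.580) and hashtag 12 held 5 among 2537 (0.197%, 0.0640 to 0.459). The interval of hashtag 9 lay above the others under this call, but the share ranged from 0.698% to 2.09% with other rules for calling hashtags, and under a rule of 60% of hashtag UMIs it was below that of hashtags 11 and 12. The neutrophils numbered 27, 2, 33 and 8 in the same order. Camp-high cells numbered 6, 2, 0 and 1, and the 8 cells of hashtag 11 had 11.8 CPM of Camp against 5400, 4747 and 7591 CPM in hashtags 9, 10 and 12. Mpo was at 2345, 2004, 3148 and 1826 CPM and Elane at 4208, 1976, 4936 and 951 CPM in hashtags 9 to 12. The level of Elane in hashtag 12 also depended on the call, at 1904 CPM with a quantile of 0.99 and 1107 CPM under the rule of 60%, each with 6 cells. Il10 was at 51.9 CPM in hashtag 9 and at 11.5, 11.8 and 14.3 CPM in the others. These levels rest on few UMIs: 1 cell of hashtag 9 held 10, and all 3 of hashtag 12 lay in 1 cell. Under the rule of 60%, Il10 was at 51.7, 11.5, 0 and 23.0 CPM in hashtags 9 to 12. Each hashtag is 1 set of cells with no replicate, and its condition is not known here.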

How the data were processed

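The authors deposited UMI counts per gene and per hashtag for each barcode, which Cell Ranger made on the mouse build GRCm38 without normalization (version 7.2.0 in the methods, 7.0.0 in the header of the matrix). Doublet removal and cell labels of the authors were not part of the counts used here.

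Cells were selected as stated above, and no cell exceeded the limit of 60% ribosomal protein UMIs that the study used. UMIs of a group were summed and scaled to CPM, and a group at 0 was set to 3 UMIs for ratios. The ratio step was tested on simulated data. Levels carry exact Poisson and shares exact Clopper-Pearson 95% intervals. Doublets were marked with Scrublet in scanpy 1.11.5 (expected rate 0.1) and kept. Hashtags were called with HTODemux of Seurat 5.3.0 in R 4.3.3 over all cells at a positive quantile of 0.85. Thinning to 2000 UMIs was done once with a fixed seed. Reference B cells had at least 3 UMIs of Cd79a and Ms4a1, and NK cells at least 2 of Ncr1, each without UMIs of the other exclusion genes. Python 3.11.15, NumPy 2.4.6, SciPy 1.17.1, pandas 2.3.3 and matplotlib 3.10.9 were used. Promoters came from RefSeq (GRCm38.p6) and gene bounds from GENCODE.

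Genes could be named from 22 lists, from the 15 highest and 15 lowest ratios among genes found in at least 10% of the cells of the higher group, and from the 10 most abundant genes. The selection, the lists and this rule were chosen with earlier results of these data known. The alternatives were other thresholds for enzymes, neutrophils, cells and genes, exclusion genes allowed, Scrublet doublets left out, other totals, means over cells, thinning, each hashtag left out and other hashtag calls. Added after the data had been seen were the 4 ranges, cells with Cpa3 and Gata2, with lymphoid genes or called as doublets of hashtags left out, and neutrophils with Camp, Ngp and Ltf alone. Comparisons between conditions were left out, because hashtags are not paired with conditions in the sources used here. Some genes are not reported here.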

Additional observations from a re-analysis of the deposited data

How the results depend on the processing

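Of 219 alternative values, 196 stayed within the bounds set for them, 21 moved and 2 turned. Thinning to 2000 UMIs lowered the genes compared to 785, with 184 higher and 241 lower (1374 and 812 without thinning). It left 5 of 10 specific granule and 5 of 9 mature neutrophil genes lower, beside 30.7% of all genes. Of secretion genes 10 of 11 were higher, and 4 of 9 cytokine and 3 of 4 basophil and mast cell genes. So were 1 of 2 ribosome assembly and 0 of 1 DNA replication genes, beside 23.4% of all genes. Thinning also lowered the share of cells with a UMI to 50% for Ms4a3, 10% for Kit, 6% for Cebpe, 4% for Il10 and 2% for Cd34, so depth limits what shares of low genes can show. With at least 20 UMIs per gene and no minimum of CPM, 2474 of 8644 genes were higher. Means over cells gave 12 of 16 DNA replication genes higher (28.6% of all genes). Without cells of hashtag 9, 5 of 11 specific granule genes were lower (17.6% of all genes). Without the Cpa3/Gata2 cells, which held most UMIs of the basophil and mast cell list, 2 of 13 cytokine genes were higher, beside 23.6% of all genes. Only 1 basophil and mast cell gene was then compared, in place of 6, and it was lower. The share of hashtag 9 was 2.09% at a quantile of 0.99 and 0.698% under the rule of 60% of hashtag UMIs, which gave 0.973% for hashtag 11 and 0.748% for hashtag 12. The causes of the other changes were not tested. The median log2 ratio of all genes lay between -0.30 and 0.26, and of the mitosis list between -0.62 and 0.54. Among genes counted as different in the main comparison and compared again, none was counted in the opposite direction, except 1 against neutrophils with Camp, Ngp and Ltf alone.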
